A study of Mus musculus with 40 samples.

Results

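Hypothalamic and pituitary hormone genes were followed through RNA-seq libraries of mouse midbrain and spinal cord. The members were 9 genes: Pmch, Hcrt, Avp, Oxt, Trh and Cartpt, whose peptides are made by hypothalamic neurons, and Gh, Prl and Pomc, whose hormones are made in the pituitary. All 9 were found among the 40213 gene symbols of the tables. They were chosen by their midbrain CPM levels in these same libraries, which were already known to be uneven, so their midbrain values, and every count of members past a threshold in midbrain, are given as a description from which nothing is read.

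The study used male C57BL/6N mice of 8 weeks and compared 5 groups with 4 libraries each in both tissues, 40 libraries in all. Con mice received saline in place of MPTP and saline at an acupoint by the knee. MPTP-Veh mice received the dopaminergic neurotoxin MPTP, 20 mg/kg intraperitoneally in 4 injections, and saline at the same acupoint. MPTP-SU mice received the same MPTP and then SUEHP, an herbal pharmacopuncture formulation containing deer antler, injected at that acupoint in 4 sessions that began a week after MPTP. Mice of the MPTP-SU+S and of the MPTP-SU+T group received MPTP and SUEHP together with an antagonist of the cannabinoid receptor CB1 (SR141714A as the labels spell it, 3 mg/kg) or with the PPARγ inhibitor T0070907 (5 mg/kg). RNA came from whole pieces of midbrain or spinal cord, so every library is a mixture of cells, and the borders of the midbrain pieces are not given in the sources used here.

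The hypothalamus lies in front of the midbrain at the base of the brain and the pituitary hangs below it. Melanin-concentrating hormone (from Pmch) and hypocretin, also called orexin (from Hcrt), come from separate but intermingled neurons of the lateral hypothalamus and are known for roles in sleep, waking and feeding. Vasopressin (Avp) and oxytocin (Oxt) come from large neurons of the paraventricular and supraoptic nuclei and are released in the posterior pituitary. Growth hormone (Gh) and prolactin (Prl) are made by cells of the anterior pituitary, and Pomc is the precursor of corticotropin and melanocyte-stimulating hormone, made in the anterior and intermediate pituitary and in the arcuate hypothalamus. Trh and Cartpt are less restricted, and Cartpt is also known from the Edinger-Westphal nucleus, a midbrain cell group that makes urocortin (Ucn).

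Gh and Prl are classical targets of the pituitary transcription factor Pit-1 (Pou1f1), which binds AT-rich sequences near their start sites. The Prl promoter is shown because Prl and Gh appeared in the same midbrain libraries. It comprises the 250 bases before the Prl start site in the RefSeq annotation (GRCm38.p6, chr13:27057320-27057569, + strand), and the capitals mark the matches to TATNCAT on either strand (read as ATGNATA on the other strand).

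Prl: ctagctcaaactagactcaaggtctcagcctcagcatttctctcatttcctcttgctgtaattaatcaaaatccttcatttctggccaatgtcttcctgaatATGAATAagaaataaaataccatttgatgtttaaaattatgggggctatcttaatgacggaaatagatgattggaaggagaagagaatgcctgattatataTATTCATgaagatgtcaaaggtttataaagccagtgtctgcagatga

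The Prl window held 2 matches, beginning 148 and 47 bases before the start site. Promoters of 8 of the 9 members were matched, all but that of Gh, and the 7 promoters of Oxt, Avp, Trh, Pmch, Hcrt, Pomc and Cartpt held no match. The same letters occurred in 7.92% of 32851 mouse promoter windows of this length. A match is a description of the letters and not a binding site.

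Library totals ran from 11958200 to 16639823 estimated counts in midbrain and from 14642808 to 16615378 in spinal cord. At these depths 3 counts, the floor used here, equal 0.170 to 0.282 CPM (counts scaled to library size, here with TMM factors) in midbrain and 0.174 to 0.226 CPM in spinal cord. All 11 genes of a midbrain dopaminergic list were measured, and their summed level was 368 to 695 CPM over the midbrain libraries. MPTP-Veh replicate 4 stood apart, with 1.35% of its counts on mitochondrially encoded genes against 9.92% to 17.5% in the other 19 midbrain libraries, and with the lowest total. Genes of a choroid plexus list summed to 44.1 to 1270 CPM in Con and to 20.5 to 63.8 CPM in the other midbrain groups, and genes of a cortex and hippocampus list to 159 to 597 CPM in Con and to 83.2 to 258 CPM elsewhere. In bulk samples, fewer cells of a type and less RNA per cell cannot be told apart.

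The midbrain libraries with the most Pmch were other libraries than those with the most Gh. A library was counted as carrying a gene at 1 CPM or more. Pmch was carried by 13 of 20 midbrain libraries, Hcrt by 4, Oxt by 2 and Avp by 1. Gh was carried by 5 libraries, 3 of them MPTP-Veh, and Prl by 4 of those 5. Pomc was carried by 13, Trh by 15 and Cartpt by all 20. At 10 CPM or more, Pmch was found in 7 libraries, and none of these was among the 5 with Gh at 1 CPM, so that 12 libraries held the one or the other. With Pmch also counted from 1 CPM, 1 of 17 libraries held both, MPTP-SU+T replicate 1. At a lower limit of 0.5 CPM, 7 libraries carried Gh, of which 1 had Pmch at 10 CPM or more (MPTP-SU replicate 3) and 3 had it at 1 CPM or more. Whether the members came from tissue at the edge of the midbrain pieces was not tested.

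**Figure D1:**
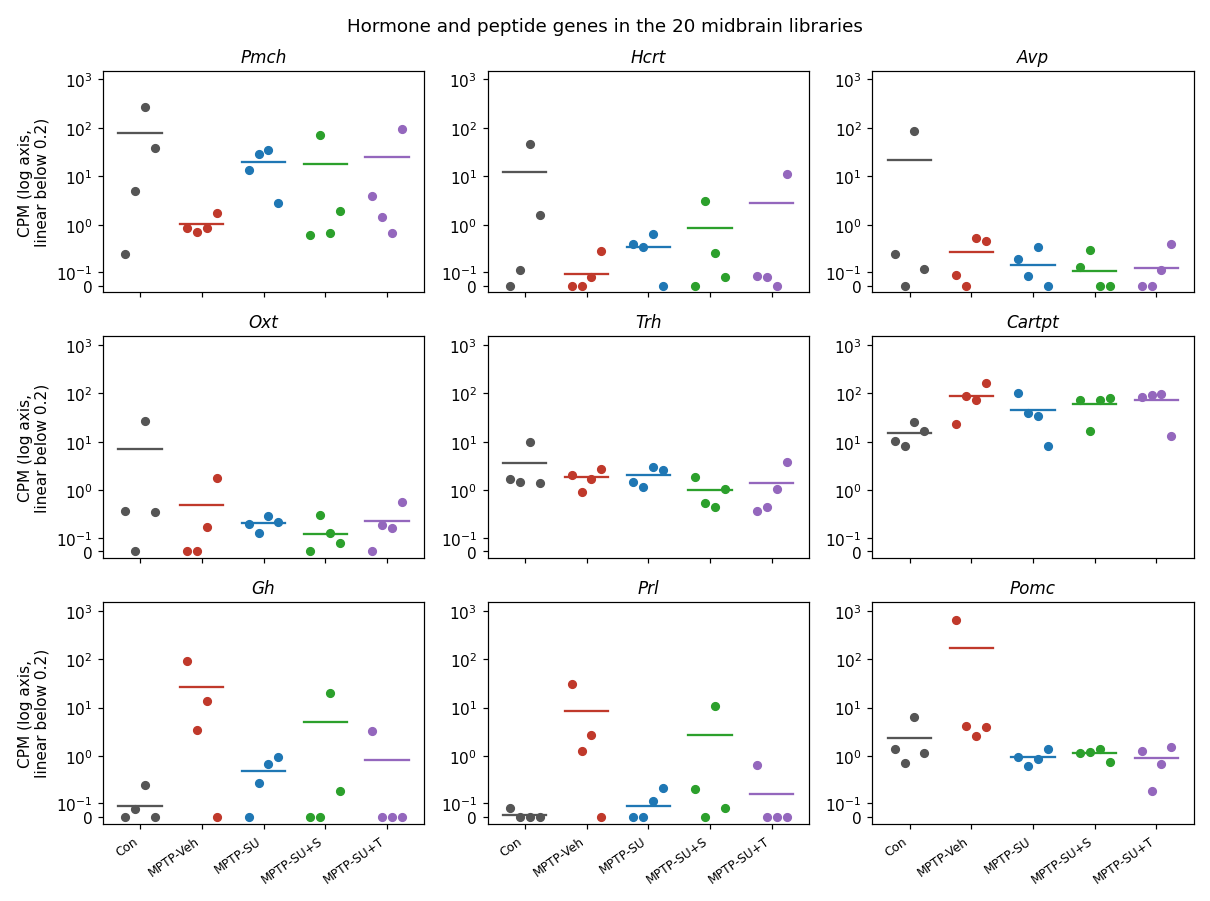
Levels of the 9 genes in the 20 midbrain libraries, in CPM on an axis that is logarithmic above 0.2 and linear below; each point is a library, placed left to right by replicate number, and each bar is the mean of the 4 libraries of a group. In Pmch, Hcrt, Avp, Oxt, Gh, Prl and Pomc the mean of at least 1 group lies far above all but 1 of its libraries.

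Pmch reached its highest level in a control library. The 4 Con libraries, in the order of their replicate numbers, held 0.254, 4.94, 274 and 38.7 CPM. The MPTP-Veh libraries held 0.855, 0.719, 0.843 and 1.79 CPM and the MPTP-SU libraries 13.5, 28.2, 34.7 and 2.79 CPM. Thus the Con libraries ranged below and above every other midbrain library, MPTP-Veh was low in every library, and MPTP-SU was above MPTP-Veh in every library. In MPTP-SU+S the values were 0.614, 69.9, 0.660 and 1.95 CPM and in MPTP-SU+T they were 3.86, 1.42, 0.680 and 93.9 CPM, so each antagonist group had 1 library near or above 70 CPM and 3 below 4 CPM. The group means in descending order were 79.4 ± 131 CPM in Con, 25.0 ± 46.0 in MPTP-SU+T, 19.8 ± 14.4 CPM for MPTP-SU, 18.3 ± 34.4 for MPTP-SU+S and 1.05 ± 0.494 for MPTP-Veh (SD, n = 4). Of the 10 pairs of groups, only MPTP-Veh and MPTP-SU did not overlap, as was the case for 21.9% of all genes in that comparison. Without the highest library of each group the means became 14.6, 1.99, 14.8, 1.07 and 0.806 CPM in that order, and the antagonist groups then lay beside MPTP-Veh. Con replicate 3 alone supplied 47.7% of the summed Pmch level of the 20 libraries.

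Hcrt followed Pmch at a lower count. Con replicate 3 held 736 Hcrt counts (46.5 CPM), MPTP-SU+T replicate 4 held 192 (10.9 CPM), MPTP-SU+S replicate 2 held 51 (3.13 CPM) and Con replicate 4 held 26 (1.59 CPM). These were the 4 libraries with the most Pmch. No other midbrain library had more than 11 Hcrt counts, and 6 had 0. The 3 MPTP-SU libraries with 201 to 598 Pmch counts had 6, 5 and 11 Hcrt counts. The ratio of Pmch to Hcrt counts was 5.89 in Con replicate 3, 8.60 in MPTP-SU+T replicate 4, 22.3 in MPTP-SU+S replicate 2, 24.3 in Con replicate 4 and 54.4 in MPTP-SU replicate 3, so the ratio of these transcripts varied between libraries. Con replicate 3 supplied 72.1% of the summed Hcrt level.

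Con replicate 3 was the only midbrain library above 2 CPM for Avp or Oxt. That library held 1354 Avp counts (85.5 CPM) and 435 Oxt counts (27.5 CPM), a ratio of 3.11. The 19 other midbrain libraries held 0 to 9 Avp counts and 0 to 19 Oxt counts, the latter in MPTP-Veh replicate 4 (1.79 CPM). Con replicate 3 supplied 96.6% of the summed Avp level and 84.6% of the summed Oxt level. Avp and Oxt were the 2 members that did not pass the filter on low counts in midbrain, so no fold change was fitted for them.

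Trh, which encodes thyrotropin-releasing hormone, was low in most midbrain libraries and highest in the same control library. The Con libraries held 1.72, 1.49, 10.04 and 1.41 CPM and the MPTP-Veh libraries 2.10, 0.915, 1.75 and 2.82 CPM. The MPTP-SU libraries held 1.47, 1.16, 3.02 and 2.64 CPM, MPTP-SU+S 1.91, 0.553, 0.462 and 1.07 CPM and MPTP-SU+T 0.371, 0.451, 1.08 and 3.81 CPM. All 10 pairs of groups overlapped, and Con replicate 3 supplied 25.0% of the summed level.

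Gh had the opposite arrangement to Pmch and was highest in MPTP-Veh. The MPTP-Veh libraries held 1174, 53, 232 and 0 Gh counts, or 91.3, 3.46, 14.0 and 0 CPM. The Con libraries held 0, 1, 4 and 0 counts and the MPTP-SU libraries 0, 4, 12 and 13 counts. In each antagonist group a single library held Gh, MPTP-SU+S replicate 3 with 305 counts (20.1 CPM) and MPTP-SU+T replicate 1 with 45 counts (3.34 CPM), and the other 6 held 0 to 3 counts. The group means were 27.2 ± 43.1 CPM in MPTP-Veh, 5.08 ± 10.04 in MPTP-SU+S, 0.835 ± 1.67 in MPTP-SU+T, 0.481 ± 0.426 for MPTP-SU and 0.0780 ± 0.120 for Con (SD, n = 4), and every pair of groups overlapped because MPTP-Veh replicate 4 held none. MPTP-Veh replicate 1 supplied 67.8% of the summed Gh level.

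Prl was found in the same libraries as Gh. MPTP-Veh held 395, 19, 45 and 0 Prl counts, MPTP-SU+S replicate 3 held 163 and MPTP-SU+T replicate 1 held 9. No other midbrain library had more than 3 Prl counts, and 10 had 0. The ratio of Gh to Prl counts in the 5 libraries was 2.97, 2.79 and 5.16 in MPTP-Veh replicates 1, 2 and 3, 1.87 in MPTP-SU+S replicate 3 and 5 in MPTP-SU+T replicate 1. The ratio thus stayed between 1.87 and 5.16 while the Gh counts ranged from 45 to 1174. MPTP-Veh replicate 1 supplied 65.7% of the summed Prl level. Prl and Pmch each overlap an annotated gene on the opposite strand (Gm47888 and Parpbp), and since strand-specific counting is not stated, reads of these genes may not be fully told apart.

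Pomc was present in every midbrain library and extreme in MPTP-Veh replicate 1. The MPTP-Veh libraries held 8431, 63, 43 and 42 Pomc counts, or 655, 4.12, 2.59 and 3.95 CPM, and replicate 1 supplied 95.3% of the summed level of the 20 libraries. The Con libraries held 1.40, 0.715, 6.25 and 1.16 CPM, and the highest of these was again replicate 3. The 12 libraries of the SUEHP groups held 0.193 to 1.54 CPM, below every MPTP-Veh library, and the group means were 0.954 ± 0.324 CPM for MPTP-SU, 1.13 ± 0.269 for MPTP-SU+S and 0.918 ± 0.600 for MPTP-SU+T (SD, n = 4). Of all genes, 11.3% lay lower in every MPTP-SU library than in any MPTP-Veh library, 8.99% did so in every MPTP-SU+S library and 7.93% in every MPTP-SU+T library. Pomc did not keep to Gh in its amount, since the ratio of Pomc to Gh counts was 7.18 in MPTP-Veh replicate 1, 1.19 and 0.185 in replicates 2 and 3, 0.0689 in MPTP-SU+S replicate 3 and 0.378 in MPTP-SU+T replicate 1. The Pomc level of MPTP-SU+S replicate 3, 1.39 CPM, lay within the range of the libraries with 0 Gh counts.

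Cartpt, which encodes the CART peptide precursor, had a different order of groups. The Con libraries held 10.7, 8.34, 26.2 and 16.6 CPM and the MPTP-Veh libraries 23.3, 89.9, 74.4 and 164 CPM. The MPTP-SU libraries held 101, 38.8, 34.4 and 8.21 CPM. In both antagonist groups the library with the most Pmch was the lowest for Cartpt, 16.6 CPM in MPTP-SU+S replicate 2 beside 72.3, 73.2 and 81.8 CPM, and 13.4 CPM in MPTP-SU+T replicate 4 beside 85.7, 93.5 and 95.7 CPM. The other groups did not share this. In Con (replicate 3) and MPTP-Veh (replicate 4) the library with the most Pmch was the highest for Cartpt, and in MPTP-SU it was not the lowest. Spearman's rho of Pmch and Cartpt over the 20 midbrain libraries was −0.305. The group means were 87.8 ± 58.0 CPM in MPTP-Veh, 72.1 ± 39.3 in MPTP-SU+T, 61.0 ± 29.9 in MPTP-SU+S, 45.7 ± 39.5 in MPTP-SU and 15.5 ± 7.96 in Con (SD, n = 4), and all 10 pairs of groups overlapped.

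Likeness between members was measured as the rank correlation of log2 CPM over the 20 midbrain libraries, which share processing and the 5 groups and are given here without a p-value. Spearman's rho was 0.828 for Pmch and Hcrt (Pearson's r 0.889, and 0.859 without the 2 libraries farthest from the Pmch median). It was 0.839 for Gh and Prl (r 0.952, and 0.911 without the 2 libraries farthest from the Gh median). For Avp and Oxt rho was 0.635 with r 0.910, and r was 0.727 without the 2 farthest libraries. Gh and Pomc had a rho of 0.440 and an r of 0.639 that was 0.362 without the 2 farthest libraries, so the linear relation rested largely on those. The rank correlation was −0.198 for Pmch and Gh and −0.527 for Pmch and Prl. For Pomc and the hypothalamic members it ranged from −0.156 with Cartpt to 0.338 with Avp and 0.442 with Trh, the last as high as that of Gh and Pomc.

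**Figure D2:**
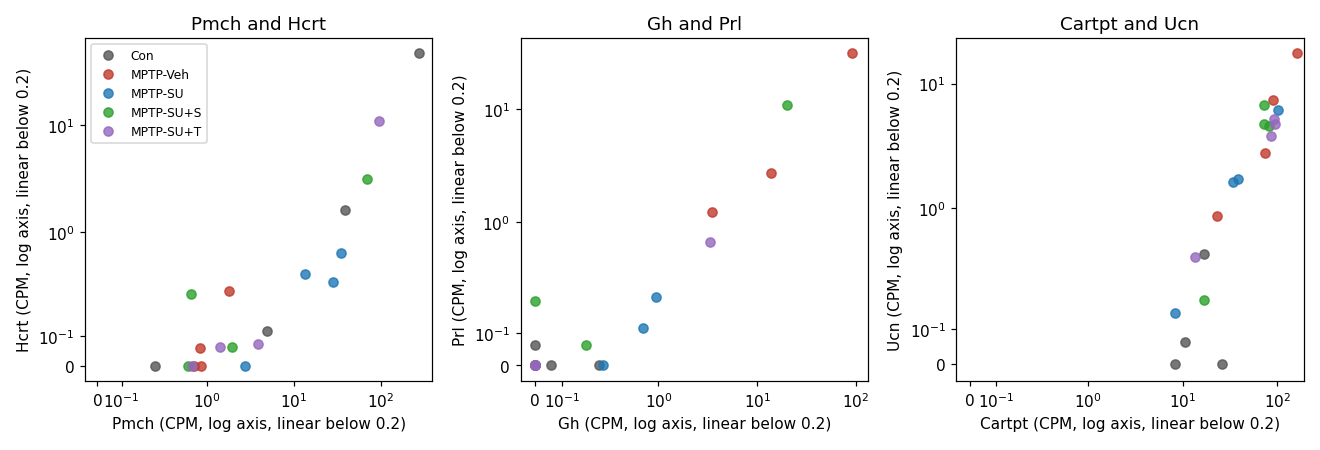
Levels of Pmch against Hcrt, Gh against Prl and Cartpt against Ucn in the 20 midbrain libraries, in CPM on axes that are logarithmic above 0.2 and linear below; each point is a library and the colour gives its group. The libraries with the most Pmch also held the most Hcrt, those with the most Gh the most Prl, and those with the most Cartpt the most Ucn, with Spearman's rho of 0.828, 0.839 and 0.886.

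Among the 14945 other genes with a mean of at least 1 CPM, those whose ranks over the 20 libraries were most like Pmch were Dlx1 (rho 0.771), Khdc4 (0.765) and Tac2 (0.762). Tac2 encodes neurokinin B, and Dlx1 is a homeobox factor of forebrain inhibitory neurons. For Hcrt they were B3gat2 (0.733), Tfdp1 (0.717) and Dlx2 (0.686), the last a relative of Dlx1. For Avp they were Wfs1 (0.774), Plxna3 (0.736) and Abcc10 (0.720), and for Oxt they were Crat (0.784), Nphp4 (0.778) and LOC129135233 (0.730). The nearest genes to Gh were Cysltr2 (0.697), Exo5 (0.678) and Sucla2 (0.669), and to Prl they were Pigc (0.726), Fgf9 (0.678) and H2-Bl (0.675). No rho with these genes reached that between Gh and Prl or between Pmch and Hcrt. The ranks of Avp and Oxt rested mostly on low counts, at most 9 and 19 in any library but Con replicate 3. Hcrt, Gh and Prl were at 0 in 6, 9 and 10 libraries, which tie in rank. The genes named head a ranking of 14945, and how high a rho such a ranking gives by chance was not tested. The gene nearest to Cartpt, named after its values were seen, was Ucn (rho 0.886, r 0.936).

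Ucn marks the Edinger-Westphal nucleus of the midbrain. It was at 0.0636, 0, 0 and 0.428 CPM in Con, 0.855, 7.32, 2.77 and 17.5 CPM in MPTP-Veh, and 6.10, 1.71, 1.62 and 0.147 CPM in MPTP-SU. For MPTP-SU+S replicate 2 and MPTP-SU+T replicate 4, the 2 antagonist libraries lowest for Cartpt, Ucn stood at 0.184 and 0.398 CPM, whereas the 6 others held 3.79 to 6.69 CPM. Over the 13 libraries with Ucn at 10 counts or more, the ratio of Cartpt to Ucn counts was 9.36 to 27.3.

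A list of 42 other hypothalamic genes (neuropeptides, transcription factors and Hdc, the enzyme of histamine synthesis) was followed in the same libraries. It was chosen with earlier results of these data known, so the values here are a description. Summed over the 19 neuropeptides, Con replicate 3 held 178 CPM and the other midbrain libraries 103 to 155 CPM. Over the 23 transcription factors and enzymes it held 151.1 CPM, and MPTP-Veh replicate 4 held 150.5 CPM. Of the 42, 17 (40.5%) had their highest level of all 20 midbrain libraries in Con replicate 3, against 2.6% of 22687 genes with at least 10 counts. That library had 3 or more counts for 39 of the 42, and the others for 24 to 34. Nr5a1, a factor of the ventromedial hypothalamus, was at 3.09 CPM there and at 0 to 0.188 CPM in the other 19 libraries, and Fezf1 was at 4.04 CPM against 0 to 0.489 CPM. Both were named after their values were seen. Six6, Gal, Otp and Isl1 were also highest there, at 1.89, 6.44, 15.5 and 9.97 CPM. Hdc was not, since MPTP-SU replicate 1 held 10.1 CPM and Con replicates 2, 3 and 4 held 8.22, 9.28 and 9.41 CPM. Agrp, an appetite peptide of the arcuate nucleus, stayed at or below 0.752 CPM in every midbrain library, and Npy was spread over all libraries at 4.43 to 20.2 CPM. MPTP-SU replicate 1 was highest for 7 of the 42 genes (16.7%, against 6.02% of all genes) and MPTP-Veh replicate 4 for 9 (21.4%, against 29.7%).

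**Figure D3:**
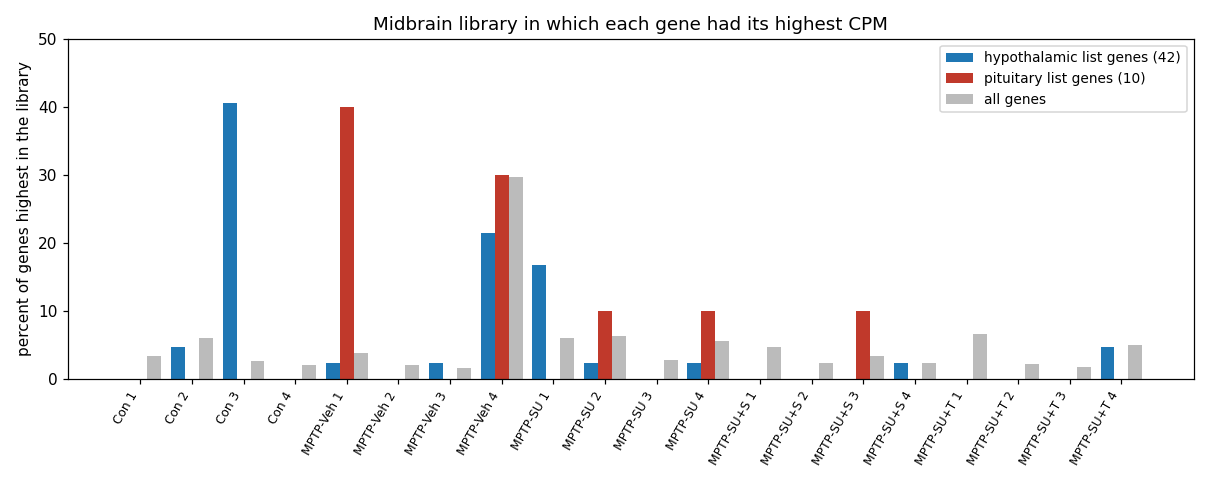
Percent of genes that had their highest CPM in each of the 20 midbrain libraries, for 42 hypothalamic list genes, for the 10 pituitary list genes with at least 10 counts in all, and for all genes with at least 10 counts. Con replicate 3 holds 40.5% of the hypothalamic genes, MPTP-Veh replicate 1 holds 40% of the pituitary genes and MPTP-Veh replicate 4 holds 29.7% of all genes.

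The 14 pituitary genes besides the members were nearly all at the limit of detection. Ghrhr, Gnrhr and Hesx1 had fewer than 10 counts in all 20 midbrain libraries together, and Hesx1 had 0. Cga, the shared subunit of the glycoprotein hormones, was found in the 5 libraries with Gh and in no other, with 36, 3 and 2 counts in MPTP-Veh replicates 1, 2 and 3, 11 in MPTP-SU+S replicate 3 and 4 in MPTP-SU+T replicate 1. Fshb, the follitropin subunit, had 17, 4 and 2 counts in MPTP-Veh replicate 1, MPTP-SU+S replicate 3 and MPTP-SU+T replicate 1 and 0 elsewhere. Tbx19, a factor of the Pomc-producing pituitary cells, had 20 counts in MPTP-Veh replicate 1 and at most 5 in any other library. Tshb was at or below 0.466 CPM, Lhb at or below 0.470 CPM and Pou1f1 at or below 0.440 CPM in every library. Pitx1 was highest in MPTP-Veh replicate 4, at 3.01 CPM, a library without Gh or Prl. The summed level of the 14 genes was 2.26 to 3.82 CPM in Con, 2.55 to 10.4 for MPTP-Veh and 1.54 to 2.87 for MPTP-SU, whereas MPTP-SU+S ranged from 1.95 to 3.57 and MPTP-SU+T from 1.08 to 3.34 CPM.

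Comparisons between groups were fitted with edgeR's quasi-likelihood test over all genes that passed the filter, 16629 in midbrain, and a gene was past the threshold at a Benjamini-Hochberg adjusted p below 0.05 and a fold change above 1.5. For MPTP-Veh against Con, which asks what MPTP changed, 0 of the 7 members fitted in midbrain were past the threshold, beside 0.018% of all genes. Nothing is read from this count or from those that follow for the members in midbrain, which were chosen with these values known. At an unadjusted p below 0.05 there were 6 members, beside 23.7% of all genes, and DESeq2 put 3 of the 5 members with an adjusted p past the threshold, beside 2.68% of all genes, and limma-voom 0. No member had groups that did not overlap, beside 12.4% of all genes. Without MPTP-Veh replicate 3 edgeR put 4 members past the threshold (Gh, Prl, Pomc and Cartpt), beside 6.47% of all genes in that fit. The log2 fold change was −6.28 ± 2.07 (SE) for Pmch and 6.13 ± 1.44 for Pomc. Without Con replicate 3 the Pmch value was −3.84, and without MPTP-Veh replicate 1 the Pomc value was 0.57. For Trh the value was −0.97 ± 0.71 and turned to 0.28 without Con replicate 3. For Cartpt it was 2.50 ± 0.72 and lay between 2.02 and 2.89 with any of the 8 libraries left out. Gh, Prl and Hcrt had a group at or near the floor, and their counts above stand in place of a fold change.

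For MPTP-SU against MPTP-Veh, which asks what SUEHP changed after MPTP, 3 of the 7 members fitted were past the threshold, Gh, Prl and Pomc, all lower in MPTP-SU, beside 13.5% of all genes (4.35% higher and 9.1% lower). The log2 fold change was −7.45 ± 1.58 for Pomc, −5.80 ± 1.83 for Gh, 4.29 ± 2.00 for Pmch, −0.94 ± 0.68 for Cartpt and 0.15 ± 0.72 for Trh (SE, n = 4 per group). Pmch was higher in every MPTP-SU library than in any MPTP-Veh library, as were 10.6% of all genes, and Pomc was lower in every one, as were 11.3%. Prl, with 0 to 3 counts in each MPTP-SU library, is given no fold change. Without MPTP-Veh replicate 1, Gh and Prl were no longer past the threshold, Gh with a value of −3.60, and Pomc remained past it with −1.89, beside 17.4% of all genes. Without MPTP-SU replicate 1, 2 or 3, only Pomc of the members was past the threshold, beside 6.71%, 3.65% and 6.36% of all genes. With the 8 libraries of these groups fitted alone, no gene of any kind passed it, and with limma-voom no member did, beside 10.3% of all genes. DESeq2 put Prl and Pmch past it, Pmch at 4.22, and not Gh, beside 16.6% of all genes. It gave Pomc and Hcrt no adjusted p in any midbrain contrast.

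**Figure D4:**
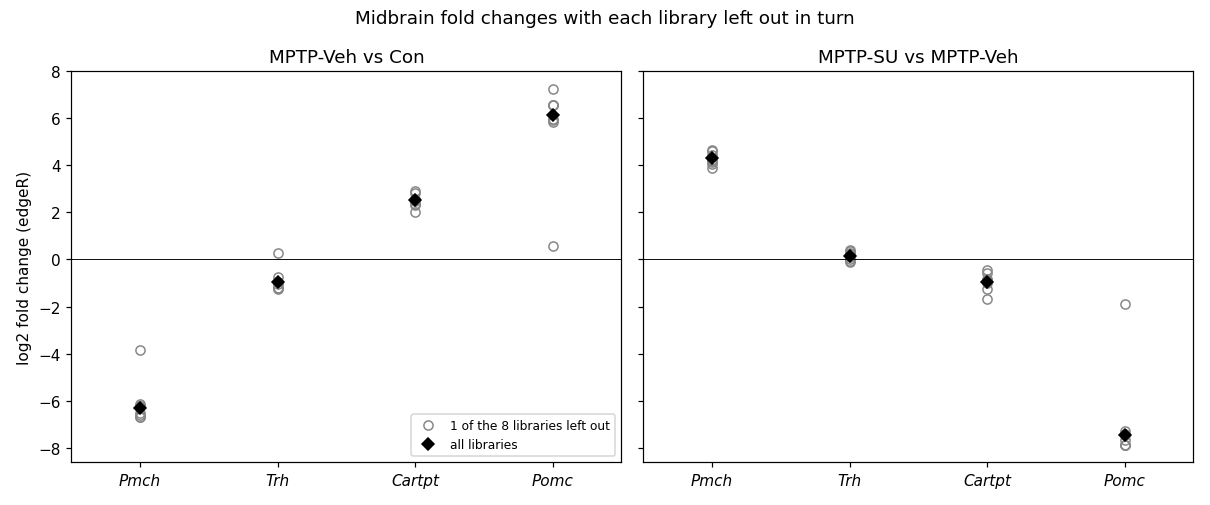
Log2 fold changes in midbrain of the 4 members with no group at or near the floor, MPTP-Veh against Con on the left and MPTP-SU against MPTP-Veh on the right, from edgeR with all libraries (filled diamonds) and with each of the 8 libraries of the contrast left out in turn (open circles). The Pomc values move from 6.13 to 0.57 and from −7.45 to −1.89 when MPTP-Veh replicate 1 is left out, and the Trh value crosses 0 on the left when Con replicate 3 is left out and lies near 0 throughout on the right.

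For the antagonist groups against MPTP-SU, 0 members and 0 of all 16629 genes were past the threshold in either contrast (0% called). At an unadjusted p below 0.05, 1 member and 1.65% of all genes stood in MPTP-SU+S against MPTP-SU, and 0 members and 1.7% of all genes in MPTP-SU+T against MPTP-SU, and limma-voom and DESeq2, the latter without Hcrt and Pomc, called 0 members. Single libraries set the size or the sign of several member values. In MPTP-SU+S against MPTP-SU the Pmch value was −0.11 with all libraries and −4.18 without MPTP-SU+S replicate 2, and without MPTP-SU+S replicate 3 that group held at most 3 Gh counts in a library. In MPTP-SU+T against MPTP-SU the Pmch value was 0.34 with all libraries and −3.37 without MPTP-SU+T replicate 4. These contrasts share the MPTP-SU libraries.

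Of the 42 hypothalamic list genes 25 passed the filter, and 6 of these changed in MPTP-SU against MPTP-Veh, 2 higher and 4 lower, beside 4.35% higher and 9.1% lower of all genes. Their median log2 fold change was 0.01, and that of all genes was 0.00. Isl1, a homeobox factor of arcuate neurons, rose by 2.67 ± 0.84 (adjusted p = 0.0354) and Tac2 rose by 2.51 ± 0.85 (adjusted p = 0.0457). Crh, the corticotropin-releasing hormone gene, fell by 1.37 ± 0.43 (adjusted p = 0.0354), Lhx5 fell by 1.38 ± 0.39 (adjusted p = 0.0254), Sst, encoding somatostatin, fell by 0.85 ± 0.19 (adjusted p = 0.0104) and Six3 fell by 0.79 ± 0.28 (adjusted p = 0.0489, all on the log2 scale by edgeR). Sst, Crh and Isl1 did not overlap between the groups, which held for 21.9% of all genes, Sst at 34.9 to 53.1 CPM in MPTP-SU and 54.4 to 84.6 CPM in MPTP-Veh, Crh at 0.696 to 1.84 CPM and 2.88 to 6.02 CPM, and Isl1 at 1.98 to 3.71 CPM and 0.0940 to 0.843 CPM. Without MPTP-Veh replicate 4 the number past the threshold was 2, beside 3.4% of all genes, with Sst at an adjusted p of 0.00929 and Prdm12 at 0.0403. The Tac2 and Isl1 values were then 2.53 and 2.40 (adjusted p = 0.0785 and 0.0761) and that of Crh −1.08 (adjusted p = 0.101), whereas Lhx5 moved to −0.63 (adjusted p = 0.112) and Six3 to −0.47 (adjusted p = 0.205, edgeR). Without MPTP-SU replicate 2, 3 or 4 the numbers were 2, 2 and 3, beside 3.65%, 6.36% and 10.8% of all genes. Leaving out MPTP-Veh replicate 3 gave 10, and limma-voom gave 2, beside 21% and 10.3% of all genes. With the 8 libraries fitted alone, and with Con replicate 3 and MPTP-Veh replicates 1 and 4 left out together, the number was 0, beside 0% and 1.68% of all genes. In the other 3 midbrain contrasts 0 of the 25 passed by edgeR. At an unadjusted p below 0.05 these numbered 9 in MPTP-Veh against Con, 2 in MPTP-SU+S against MPTP-SU and 1 in MPTP-SU+T against MPTP-SU, beside 23.7%, 1.65% and 1.7% of all genes. DESeq2 called 4 in MPTP-Veh against Con, beside 2.68% of all genes, and 0 in the other 2 contrasts, and limma-voom called 0 in all 3.

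Only Lhx4 and Neurod4 of the 14 pituitary list genes passed the filter, and 0 of these changed in any midbrain contrast by edgeR or limma-voom, nor by DESeq2 where it gave an adjusted p, which it did not for both in MPTP-Veh against Con and for Lhx4 in MPTP-SU against MPTP-Veh. There was 1 at an unadjusted p below 0.05 in MPTP-SU against MPTP-Veh, beside 39.8% of all genes, and 0 in the other 3. Receptors for the member peptides, 12 of 16 fitted, likewise had 0 past the threshold in each midbrain contrast, beside 13.5% of all genes in MPTP-SU against MPTP-Veh. There were 3 at an unadjusted p below 0.05 in MPTP-Veh against Con, where 23.7% of all genes stood. There were 0 in each antagonist contrast and 2 in MPTP-SU against MPTP-Veh, where 39.8% of all genes stood. Mchr1, the receptor of melanin-concentrating hormone, was at 5.32 ± 0.393 CPM in MPTP-SU and 8.53 ± 4.86 in MPTP-Veh (SD, n = 4). The latter mean was 6.10 CPM without MPTP-Veh replicate 4, which held 15.8 CPM.

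The 11 genes of prohormone processing and secretory granules were all fitted, and 3 fell in MPTP-SU against MPTP-Veh, beside 9.1% of all genes. Chgb and Chga encode granule proteins of endocrine cells and neurons. Chgb fell by 1.25 ± 0.21 (adjusted p = 0.00308), Chga fell by 1.11 ± 0.24 (adjusted p = 0.0101), and Pcsk1n, which encodes an inhibitor of a prohormone convertase, fell by 1.71 ± 0.43 (adjusted p = 0.0167, edgeR, log2 scale). In MPTP-Veh replicate 4, Chga stood at 739 CPM and Pcsk1n at 1994 CPM, and without it their values were −0.62 and −0.60, still past the threshold. With that library, MPTP-Veh replicate 1 and Con replicate 3 left out together, the Chga value was −0.57 (adjusted p = 0.0274, below the fold threshold) and the Pcsk1n value −0.68 (adjusted p = 0.0524), and Chgb stayed past the threshold at −0.87 (adjusted p = 0.00984). The median log2 fold change of the 11 was −0.33.

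Lists of neighbouring regions were set beside the members in MPTP-SU against MPTP-Veh. Of 5 genes of Edinger-Westphal and serotonergic neurons, Nucb2 fell by 0.69 ± 0.17 (adjusted p = 0.0150) and Fev by 2.78 ± 0.84 (adjusted p = 0.0312). Of 11 dopaminergic genes, En1 fell by 1.75 ± 0.36 (adjusted p = 0.00817), and of 7 cortical and hippocampal genes, Prox1 rose by 1.08 ± 0.32 (adjusted p = 0.0295, edgeR, log2 scale), beside 13.5% of all genes in both directions. Without MPTP-Veh replicate 4, Fev was at −2.09 (adjusted p = 0.0931) and Prox1 at 0.85 (adjusted p = 0.0583), and without the 3 libraries named above at −1.88 (adjusted p = 0.248) and 0.81 (adjusted p = 0.192), while Nucb2 and En1 stayed past the threshold in both fits by edgeR. Fev and Prox1 were also lost without MPTP-SU replicate 2, 3 or 4, and Nucb2 without MPTP-Veh replicate 1. Of 8 thalamic, 4 cerebellar and 7 choroid plexus genes 0 passed by edgeR, with 5, 3 and 0 at an unadjusted p below 0.05, beside 39.8% of all genes. The median log2 fold change was 1.47 over the thalamic and −1.14 over the cerebellar genes. The summed thalamic level was 186 to 678 CPM for MPTP-Veh and 388 to 1272 for MPTP-SU. These lists moved between libraries in the same tissue pieces as the members, and their part in the member differences was not tested.

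The spinal cord libraries held little of the members other than Cartpt and Trh, which reached 1 CPM in all 20 of them. Avp, Gh and Prl had 0 counts in all 20 libraries, which at 3 counts allows up to 0.226 CPM in the library with the highest floor. Pmch had 0 to 6 counts, Oxt 0 to 5 and Hcrt 0 to 4 in a library. Cartpt was at 6.90 to 12.2 CPM, Trh at 1.15 to 2.42 CPM and Pomc at 0.193 to 1.31 CPM, the last from 3 to 20 counts. Over the 20 libraries of a tissue, the SD as a percent of the mean was 11.8% for Cartpt, 20.1% for Trh and 34.0% for Pomc in spinal cord, against 75.5%, 105% and 425% in midbrain.

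**Figure D5:**
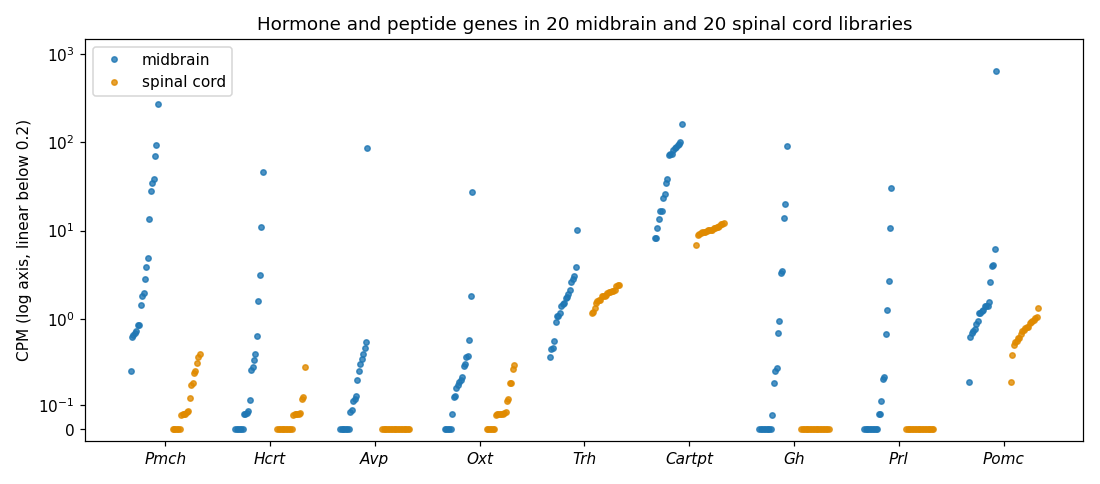
Levels of the 9 genes in CPM, on an axis logarithmic above 0.2 and linear below, in the 20 midbrain and the 20 spinal cord libraries; each point is a library, and within a gene and tissue the points are sorted from low to high. In spinal cord Cartpt keeps between 6.90 and 12.2 CPM, and Avp, Gh and Prl lie at 0 in all 20 libraries.

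Cartpt, Trh and Pomc passed the filter in spinal cord and were tested there over 16682 genes. None was past the threshold in any of the 4 contrasts by edgeR or limma-voom, nor by DESeq2 in MPTP-SU against MPTP-Veh and MPTP-SU+S against MPTP-SU, the 2 contrasts where it gave them an adjusted p, beside 0% of all genes in 3 contrasts and 0.024% in MPTP-SU+T against MPTP-SU. The smallest adjusted p was 0.649, for Cartpt in MPTP-Veh against Con. At an unadjusted p below 0.05 there was 1 value, Pomc in MPTP-SU+S against MPTP-SU, where 5.49% of all genes stood. In MPTP-Veh against Con, MPTP-SU against MPTP-Veh and MPTP-SU+T against MPTP-SU there were 0 members, beside 12.8%, 3.81% and 12.1% of all genes. Pomc was at 0.469 ± 0.249 CPM in MPTP-SU+S, against 0.803 ± 0.169 for MPTP-SU (SD, n = 4), a log2 fold change of −0.76 ± 0.36 with an adjusted p of 0.899 by edgeR. Cartpt in MPTP-SU was at 10.9 ± 0.833 CPM and in MPTP-Veh at 10.7 ± 1.25 CPM, with a log2 fold change of 0.02 ± 0.12.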

How the data were processed

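Midbrain and spinal cord RNA of 40 libraries, 4 per group and tissue, had been made into poly(A)-selected CORALL libraries and sequenced on an Illumina NovaSeq. The authors deposited estimated counts per gene symbol for each library. Per the labels, the submitters' processing notes name fastp, STAR, Salmon and GATK, without versions, and the build GRCm39. The labels and the methods of the study name different RNA extraction kits. Whether counting used strand is not given in the sources used here, and 0 columns of other samples were present.

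The estimated counts were rounded to whole numbers, filtered with filterByExpr (minimum count 10, minimum total 15) and scaled by TMM. Each tissue was fitted once over its 20 libraries with edgeR's quasi-likelihood test (edgeR 4.0.16, R 4.3.3), and p-values were adjusted by Benjamini-Hochberg over all genes tested. A call needed an adjusted p below 0.05 and a fold change above 1.5. CPM values use TMM library sizes, and correlations use log2 CPM with a prior count of 2. Tested on simulated midbrain data for MPTP-SU against MPTP-Veh, the fit recovered 66 of 100 genes changed 2-fold and 96 of 100 changed 4-fold. It made 4 false calls over 16629 genes. The changed genes had a mean of 1 CPM or more. No simulated library stood apart as a whole, as MPTP-Veh replicate 4 did, so the recovery may not hold for the real libraries. DESeq2 1.42.0, limma-voom (limma 3.58.1), other scalings and filters, the 8 libraries of a contrast alone, a replicate block and leaving out each replicate were the alternatives.

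The members and gene lists were chosen with earlier results of these data known. A gene counted in a list is not reported here by name. The genes named were the 9 members, the 3 genes most like each of 6 members, up to 5 list genes with the smallest p among the calls of each list in each midbrain contrast, and a set of hypothalamic and pituitary genes. Others are said in the report to be chosen after their values were seen, except Lhx4, Neurod4, Mchr1, Tbx19 and Prdm12, which were likewise named after their values were seen. The libraries are separate samples of a group. The edgeR p-values set a difference between groups against a spread between libraries that was estimated over the 5 groups of a tissue. Each SD is a spread between libraries, each SE comes from the edgeR fit, and floors cover counting error only. Promoters and motif matches came from RefSeq (GRCm38.p6). The genes that overlap Prl and Pmch were found from gene coordinates of a GENCODE annotation of the same build. No other coordinates of that build are printed.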

Additional observations from a re-analysis of the deposited data

Results flagged for a closer look

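Of 164 groups of 4 libraries tested for a library far from the other 3, 48 had one, all of them in midbrain and 21 of them for a member. In spinal cord only Pomc, Trh and Cartpt were screened. Midbrain had all members and many list genes, some screened because they were called there, so the tissues cannot be compared. Chance flags about 1 in 20 groups, but that rate does not apply here, since the members were known to be uneven and any group with 0 in 3 libraries and a count in the other is always marked. All values here are CPM, and 15 libraries are named.

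Con replicate 3 was far above the rest of Con for Pmch (274), Hcrt (46.5), Avp (85.5), Oxt (27.5), Pomc (6.25), Trh (10.04), Gal (6.44) and Six6 (1.89). MPTP-SU+S replicate 2 stood above its group for Pmch (69.9), Hcrt (3.13) and Agrp (0.430) and below it for Cartpt (16.6). MPTP-SU+T replicate 4 stood above its group for Pmch (93.9), Hcrt (10.9) and Gal (4.78) and below it for Cartpt (13.4).

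MPTP-Veh replicate 1 was far above its group for Gh (91.3), Prl (30.7), Pomc (655), Cga (2.80), Tshb (0.466) and Fshb (1.32). MPTP-SU+S replicate 3 stood above its group for Gh (20.1), Prl (10.8), Cga (0.727), Fshb (0.264) and Crh (4.29). MPTP-SU+T replicate 1 did so for Gh (3.34), Prl (0.668) and Cga (0.297).

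MPTP-Veh replicate 4, the library with few mitochondrial counts, was far above its group for Pmch (1.79), Oxt (1.79), Agrp (0.752), Lhb (0.470), Lhx5 (33.9), Pcsk1n (1994), Chga (739) and En1 (46.2). Hdc was low in Con replicate 1 (0.636) and high in MPTP-Veh replicate 3 (7.46), and Ucn was high in Con replicate 4 (0.428). Otp (6.90) and Sst (53.1) were high in MPTP-SU replicate 1, Chgb was low in MPTP-SU replicate 3 (174) and Pou1f1 was high in MPTP-SU replicate 4 (0.440). Chga was high in MPTP-SU+S replicate 1 (261), and Pitx1 (0.510) and Fev (3.17) were high in MPTP-SU+T replicate 3.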

How the results depend on the processing

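No result changed sign as a call under any alternative run, and 266 summary values stayed near the reported one, beside 32 that did not. Of the values of single genes, 549 stayed near, 65 lost their call and 30 moved. The 32 follow, and their cause was not tested unless stated. In MPTP-Veh against Con, DESeq2 put 4 hypothalamic list genes and 3 members past the threshold, beside 2.68% of all genes. Leaving out 1 replicate gave 0 to 4 of each there, the 4 without MPTP-Veh replicate 3, where 6.47% of all genes were past it. In MPTP-SU against MPTP-Veh, the hypothalamic genes numbered 2 with limma-voom, 0 with the 8 libraries alone, 0 with 3 libraries left out together (Con replicate 3, MPTP-Veh replicates 1 and 4, chosen after seeing the data) and 2 to 10 with 1 replicate left out. The members numbered 0 with limma-voom, 0 with at least 10 counts in every library (only 1 was then tested), 0 with the 8 libraries alone, 1 with the 3 left out and 1 to 3 with 1 replicate left out. The calls of all genes in that contrast, 2237, were 1708 with limma-voom, 3543 without MPTP-Veh replicate 3, 572 without MPTP-Veh replicate 4, 287 without the 3 libraries and 0 with the 8 alone. By construction a higher CPM limit finds fewer libraries: at 5 CPM, Pmch was carried by 7, Hcrt by 2, Oxt by 1, Gh by 3, Prl by 2, Pomc by 2 and Trh by 1; at 2 CPM, Oxt by 1, Pomc by 5 and Trh by 6; at 0.5 CPM, Avp by 2. Without the 2 farthest libraries rho for Gh and Pomc was 0.331. Deviations of same-numbered midbrain libraries had an r of −0.168 to 0.378 (mean 0.0477, against a mean of −0.014 for other pairs). In midbrain 10 of 20 libraries were closest to their own of the 4 replicate numbers, against 4 of 20 in spinal cord. Whether same-numbered libraries shared a batch was not tested. With the replicate block, 2020 genes, 6 hypothalamic genes and 2 members were past the threshold in MPTP-SU against MPTP-Veh. The pituitary list had no gene with at least 10 counts in every library, so that alternative gave no value. Low counts limit Hcrt, Avp, Oxt, Gh and Prl, which were at 0 in 5 to 10 midbrain libraries.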
